A study of Homo sapiens with 9 samples.

Results

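The genes described are the cohesin subunits and their regulators, a set of 10 genes measured with 23 probes among 50238 probes and 31033 gene names on each array. Probes were taken by the gene name in the array files. This found 8 of the genes with 16 probes, WAPL under its older name WAPAL. PDS5A and PDS5B are on the array under the older symbols SCC-112 and APRIN, a match made through RefSeq synonyms, and add 7 probes. The core subunits are SMC1A, SMC3, RAD21, STAG1 and STAG2, the loading, release and maintenance factors are NIPBL, WAPL, PDS5A and PDS5B, and CTCF is the boundary factor.

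The arrays came from a human colorectal cancer line, DLD1, as 3 untreated cultures (Control), 3 treated for 48 h with 100 nM siRNA against Lamin A/C (Lamin A/C Kd) and 3 treated in the same way against Lamin B2 (Lamin B2 Kd). The study's methods name the cultures as independent biological replicates. No array came from cells given a control siRNA, so transfection and the loss of a lamin cannot be told apart against Control, and both knockdowns were set against the same 3 Control arrays. RNA was labeled with Cy3 and read on single-color Agilent arrays. In a bulk sample, fewer cells of a kind and less RNA per cell cannot be told apart.

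Cohesin is a ring-shaped protein complex that embraces DNA. SMC1A and SMC3 are ATPases that pair at a hinge, the kleisin RAD21 closes the ring, and either STAG1 or STAG2 binds RAD21. The ring holds sister chromatids together from replication to anaphase and draws out chromatin loops in interphase, many of which stop at CTCF. NIPBL loads cohesin onto DNA, WAPL releases it, and PDS5A and PDS5B bind the ring and take part in both its release and its maintenance.

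SMC1A was the member with the largest difference, and the array reads it at 2 places. The first 30 bases of both 60-base probes are shown as the files give them, because the fall of SMC1A was seen by both. They are not stretches of 1 shared sequence: no run of 20 bases of either probe occurs in the other, or in a probe of any other gene name.
SMC1A, brightest probe: caaagccgggtgcgatgagctcagccttta
SMC1A, other probe: ggggtgacaagataagccaggctctagagc

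SMC1A (chromosome X), one of the paired ATPases of the ring, fell in Lamin A/C Kd. Values are log2 signals relative to the median of each array, so a value of 1 is a signal of 2 times that median. The brightest SMC1A probe read 5.61, 5.63 and 5.59 in Control (mean 5.61 ± 0.02 SD, n = 3), 4.05, 4.40 and 4.36 in Lamin A/C Kd (4.27 ± 0.20) and 5.43, 5.45 and 4.96 in Lamin B2 Kd (5.28 ± 0.28). Every Lamin A/C Kd array lay below every Control and every Lamin B2 Kd array, and every Lamin B2 Kd array lay below every Control array. The log2 change in Lamin A/C Kd was −1.34 (SE 0.16, 95% interval −1.70 to −0.98, adjusted p = 0.00250, limma), which left 39.5% of the Control signal. In Lamin B2 Kd the difference was −0.34 (SE 0.16, interval −0.70 to 0.03, adjusted p = 0.240). The study singled out SMC1A from these arrays as lower in Lamin A/C Kd and not in Lamin B2 Kd. Neither this test nor the contrast of the knockdowns below is therefore independent evidence of that pattern.

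The other SMC1A probe read 4.15, 4.26 and 4.34 in Control, 3.27, 3.35 and 3.31 in Lamin A/C Kd, and 3.96, 3.94 and 3.51 in Lamin B2 Kd. The groups again did not overlap. It fell by 0.94 in Lamin A/C Kd (SE 0.14, adjusted p = 0.00643, limma), and its difference in Lamin B2 Kd was −0.45 (SE 0.14, unadjusted p = 0.0118, adjusted p = 0.111). Replicate 3 was the lowest Lamin B2 Kd array for both probes. It was hybridized on another slide than the other 8 arrays, and its processed signal had not been divided by the surface that corrects spatial trends. Without it, the difference of the brightest probe in Lamin B2 Kd was −0.18 (adjusted p = 0.469).

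**Figure D1:**
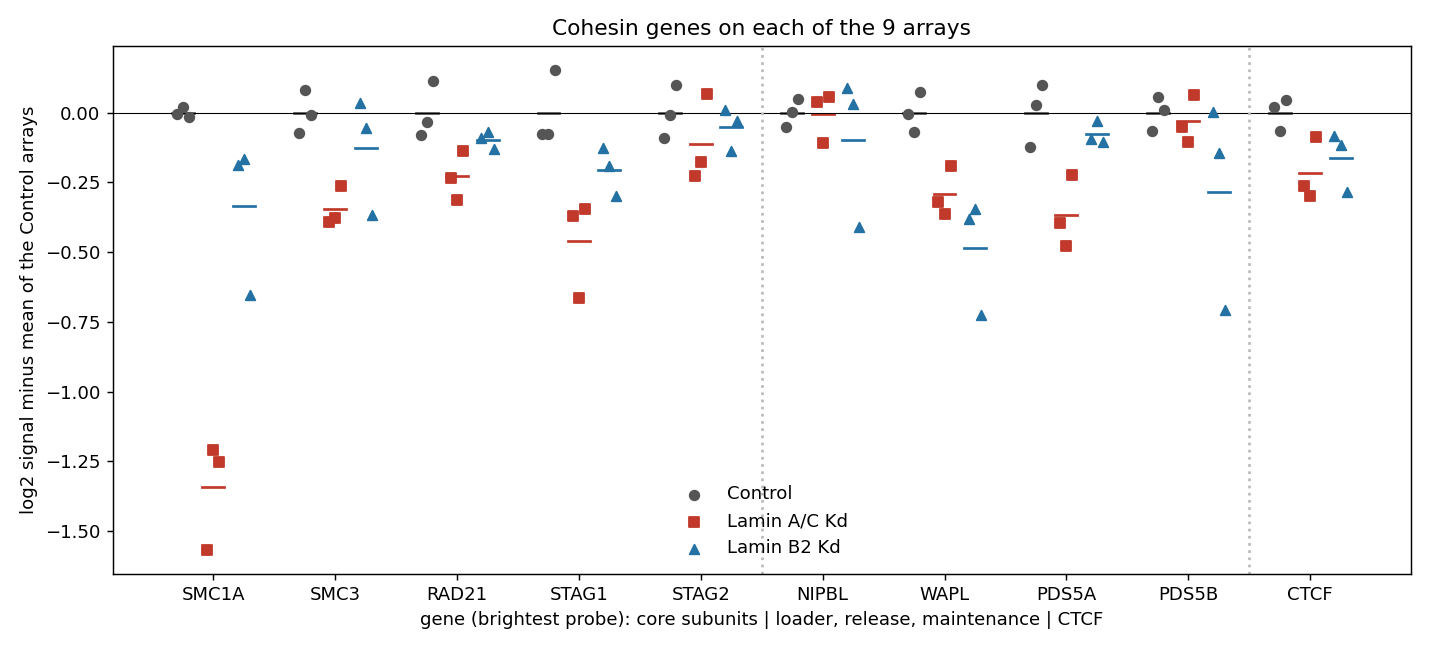
Log2 signal of the brightest probe of each gene on each of the 9 arrays, minus the mean of its 3 Control arrays (vertical axis, log2), with genes on the horizontal axis in order of role. Points are single arrays and short lines are group means. The 3 Lamin A/C Kd arrays of SMC1A lie more than 1 below the Control mean, while no array of any other gene does.

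Set against the whole array, the fall of SMC1A in Lamin A/C Kd was exceeded by 109 of the 21840 gene names tested (0.499%). For Lamin B2 Kd, 25.5% of 22097 gene names had a larger fall than SMC1A. The direct contrast of the knockdowns, Lamin A/C Kd minus Lamin B2 Kd, was −1.01 for the brightest SMC1A probe (SE 0.16, interval −1.37 to −0.64, adjusted p = 0.00417, limma) and −0.49 for the other (adjusted p = 0.0453). By its brightest probe, SMC1A was the 1 member of 10 with a difference between the knockdowns at an adjusted p under 0.05. By this criterion 15.7% of all gene names differed in either direction, with 4.53% lower in Lamin A/C Kd than in Lamin B2 Kd.

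SMC3 (chromosome 10), the ATPase that pairs with SMC1A, has 1 probe. It read 6.74, 6.90 and 6.81 in Control, 6.42, 6.44 and 6.55 in Lamin A/C Kd and 6.85, 6.76 and 6.45 in Lamin B2 Kd. All Lamin A/C Kd arrays lay below Control, whereas the Lamin B2 Kd values overlapped the Control range. The difference was −0.34 in Lamin A/C Kd (SE 0.13, interval −0.64 to −0.05, adjusted p = 0.142, limma) and −0.13 in Lamin B2 Kd (adjusted p = 0.547), the latter −0.0093 without replicate 3 (adjusted p = 0.971). Neither passed the test.

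SMC1A and SMC3 were also compared within each array, which removes any scaling of the array as a whole. Log2 SMC1A minus log2 SMC3 was −1.13, −1.26 and −1.21 in Control, −2.38, −2.03 and −2.19 in Lamin A/C Kd and −1.42, −1.32 and −1.49 in Lamin B2 Kd. The 3 groups did not overlap. Against Control, the change was −0.998 with the Lamin A/C siRNA and −0.208 with the Lamin B2 siRNA, each with p = 0.1 in an exact two-sided permutation test, the smallest p that 3 arrays against 3 can give. The change in Lamin A/C Kd minus that in Lamin B2 Kd was −0.79 (exact permutation p = 0.1).

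Against the core subunits together the picture was similar for Lamin A/C Kd, whereas Lamin B2 Kd overlapped Control. SMC1A minus the mean of SMC3, RAD21, STAG1 and STAG2 was −0.07 to 0.11 in Control, −1.22 to −0.79 in Lamin A/C Kd and −0.41 to −0.01 in Lamin B2 Kd. The average changes were −1.06 and −0.22, given as a description without a test. Relative to single members, SMC1A changed in Lamin A/C Kd by between −0.88 (against STAG1) and −1.34 (against NIPBL), and all 3 Lamin A/C Kd arrays were below all 3 Control arrays for each of the 9 partners. The average shift in Lamin B2 Kd was 0.15 against WAPL, and those against the other 8 partners were between −0.28 and −0.05. The Lamin B2 Kd arrays lay clear of Control only against SMC3 and NIPBL, and overlapped it against each of the other partners.

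**Figure D2:**
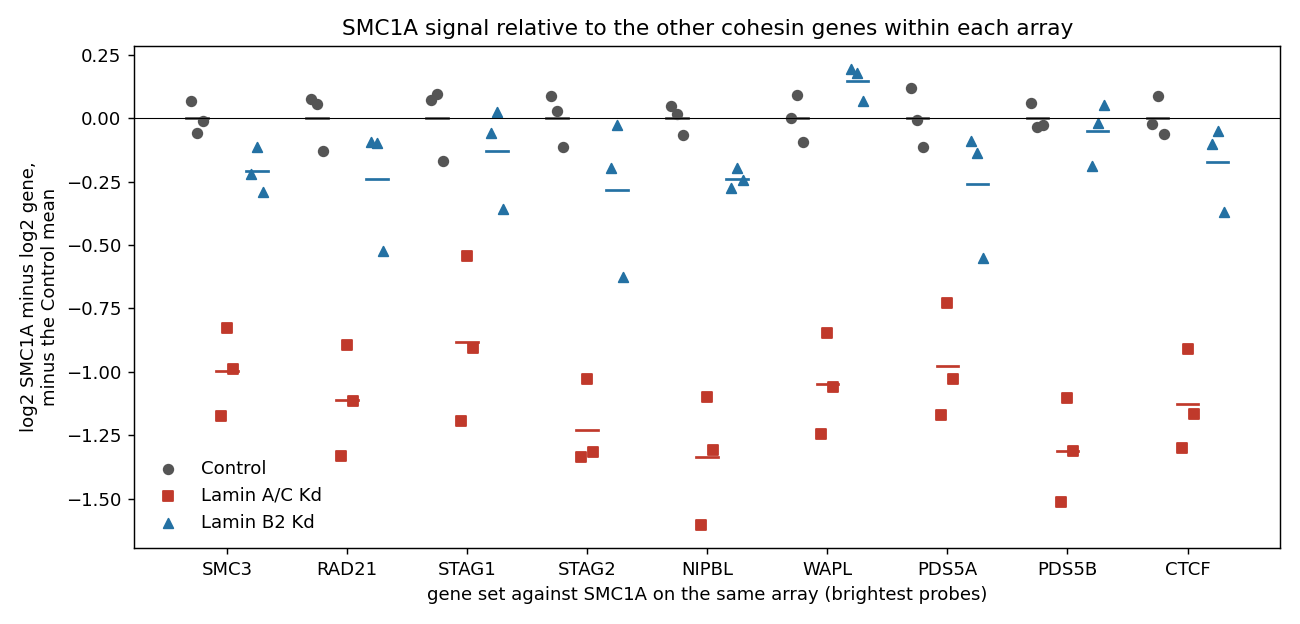
Log2 SMC1A signal minus the log2 signal of each other cohesin gene on the same array, relative to the mean of the 3 Control arrays (vertical axis, log2). Points are single arrays and lines are group means. Lamin A/C Kd averages lie between −1.34 and −0.88, and Lamin B2 Kd averages between −0.28 and 0.15.

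RAD21 (chromosome 8), the kleisin that closes the ring and is cut by separase at anaphase, has 3 probes, a pair of which overlap in sequence. The brightest read 8.47, 8.51 and 8.66 in Control, 8.31, 8.23 and 8.41 in Lamin A/C Kd and 8.45, 8.48 and 8.41 in Lamin B2 Kd. Lamin A/C Kd lay below Control on every array and the Lamin B2 Kd arrays overlapped Control. The differences were −0.23 in Lamin A/C Kd (SE 0.11, adjusted p = 0.240, limma) and −0.10 in Lamin B2 Kd (adjusted p = 0.582). The other RAD21 probes gave −0.22 and −0.23 in Lamin A/C Kd, and −0.24 and −0.13 in Lamin B2 Kd. None passed the test.

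STAG1 and STAG2 are the alternative subunits that bind RAD21. STAG1 (chromosome 3) read 1.79, 1.79 and 2.02 in Control, 1.49, 1.20 and 1.52 in Lamin A/C Kd and 1.74, 1.67 and 1.56 in Lamin B2 Kd. Both knockdowns lay below Control on all arrays, with a difference of −0.46 in Lamin A/C Kd (SE 0.13, interval −0.76 to −0.17, adjusted p = 0.0608, limma) and −0.21 in Lamin B2 Kd (adjusted p = 0.354). STAG2 (chromosome X), from the same chromosome as SMC1A, read 4.98, 5.06 and 5.17 in Control, 4.84, 4.89 and 5.14 in Lamin A/C Kd and 5.08, 4.93 and 5.04 in Lamin B2 Kd. The groups overlapped. The STAG2 differences were −0.11 and −0.05 (adjusted p = 0.650 and 0.798, limma), and those of its other probe were 0.05 and −0.19. The readings of the STAG2 probes did not move together (r = −0.20 over the 9 arrays).

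NIPBL (chromosome 5), which loads cohesin, showed no difference from Control that passed the test. Its brightest probe read 3.55, 3.61 and 3.65 in Control, 3.64, 3.49 and 3.66 in Lamin A/C Kd and 3.69, 3.63 and 3.19 in Lamin B2 Kd. The groups overlapped, and the low Lamin B2 Kd value was replicate 3. The difference was −0.00 in Lamin A/C Kd (95% interval −0.33 to 0.33, adjusted p = 0.993, limma) and −0.10 in Lamin B2 Kd (interval −0.43 to 0.23, adjusted p = 0.689), where it was 0.06 without replicate 3 (adjusted p = 0.779). The other NIPBL probes gave 0.11 and 0.27 in Lamin A/C Kd and −0.14 and 0.01 in Lamin B2 Kd.

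WAPL (chromosome 10), which releases cohesin from DNA, was below Control on every array of both knockdowns with its brightest probe. It read 6.67, 6.60 and 6.75 in Control, 6.35, 6.31 and 6.48 in Lamin A/C Kd and 6.29, 6.33 and 5.95 in Lamin B2 Kd. The difference was −0.29 in Lamin A/C Kd (SE 0.13, adjusted p = 0.214, limma) and −0.48 in Lamin B2 Kd (SE 0.13, interval −0.78 to −0.19, unadjusted p = 0.00495, adjusted p = 0.0740). The WAPL value in Lamin B2 Kd was the largest difference of any member in that knockdown, and was −0.36 without replicate 3 (adjusted p = 0.0778).

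The other WAPL probe gave the opposite order of the knockdowns. It read 4.26, 4.36 and 4.40 in Control, 3.78, 3.68 and 3.94 in Lamin A/C Kd and 4.27, 4.23 and 3.99 in Lamin B2 Kd. It fell by 0.54 in Lamin A/C Kd (SE 0.13, adjusted p = 0.0293, limma), with every array below Control, and its difference in Lamin B2 Kd was −0.18 (adjusted p = 0.395). The direct contrast of the knockdowns was 0.19 for the brightest WAPL probe (adjusted p = 0.368) and −0.37 for the other (adjusted p = 0.0822), so an order of the knockdowns was not established with either.

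PDS5A (chromosome 4), a partner of the ring in release and maintenance, is read by 3 probes that did not point one way. The first 30 bases of each are shown because the reading depends on which is used. The first and second are annotated in the files to the RefSeq transcript of the gene, and the last to another cDNA record under the same gene name.
PDS5A, brightest probe: ttatgtttcttggcattgttcagcataggt
PDS5A, second probe: tgcattgatagggacctttgtctcttcctc
PDS5A, last probe: cttgcaaacaagcagatatttgtgtggtta

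The brightest PDS5A probe read 6.54, 6.69 and 6.76 in Control, 6.27, 6.19 and 6.44 in Lamin A/C Kd and 6.57, 6.64 and 6.56 in Lamin B2 Kd. Lamin A/C Kd lay below Control throughout and Lamin B2 Kd lay within its range, with differences of −0.37 (SE 0.12, adjusted p = 0.0879, limma) and −0.08 (adjusted p = 0.693). The second probe read 4.82, 4.73 and 4.89 in Control and 4.24, 4.08 and 4.28 in Lamin A/C Kd, a fall of 0.61 (SE 0.15, adjusted p = 0.0367, limma). The last probe read 1.89, 1.92 and 2.05 in Control and 2.28, 2.20 and 2.44 in Lamin A/C Kd, with all of the latter above Control (difference 0.36, SE 0.12, adjusted p = 0.0942, limma). The second and last probes differed from Control by −0.29 and 0.16 in Lamin B2 Kd (adjusted p = 0.270 and 0.398). Over the 9 arrays the first and second PDS5A probes correlated at r = 0.83, and the last with them at −0.58 and −0.71. What the last probe reads cannot be settled from the files.

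PDS5B (chromosome 13), the paralog of PDS5A, read 4.02, 4.14 and 4.09 in Control, 4.03, 3.98 and 4.14 in Lamin A/C Kd and 4.09, 3.94 and 3.37 in Lamin B2 Kd with its brightest probe. The groups overlapped, and the lowest value was again Lamin B2 Kd replicate 3. The differences were −0.03 in Lamin A/C Kd (adjusted p = 0.948, limma) and −0.28 in Lamin B2 Kd (adjusted p = 0.343), the latter −0.07 without replicate 3. Both other probes tested gave −0.12 and −0.28 in Lamin A/C Kd, and the remaining probe was not well above background and was not tested.

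CTCF (chromosome 16), the zinc finger protein at which cohesin loops often stop, read 4.61, 4.53 and 4.64 in Control, 4.33, 4.29 and 4.51 in Lamin A/C Kd and 4.51, 4.47 and 4.31 in Lamin B2 Kd. Both knockdowns lay just below Control on every array. The differences were −0.22 in Lamin A/C Kd (SE 0.11, adjusted p = 0.293, limma) and −0.16 in Lamin B2 Kd (adjusted p = 0.393, or −0.10 without replicate 3), and the other CTCF probe gave −0.06 and −0.37. None passed the test.

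**Figure D3:**
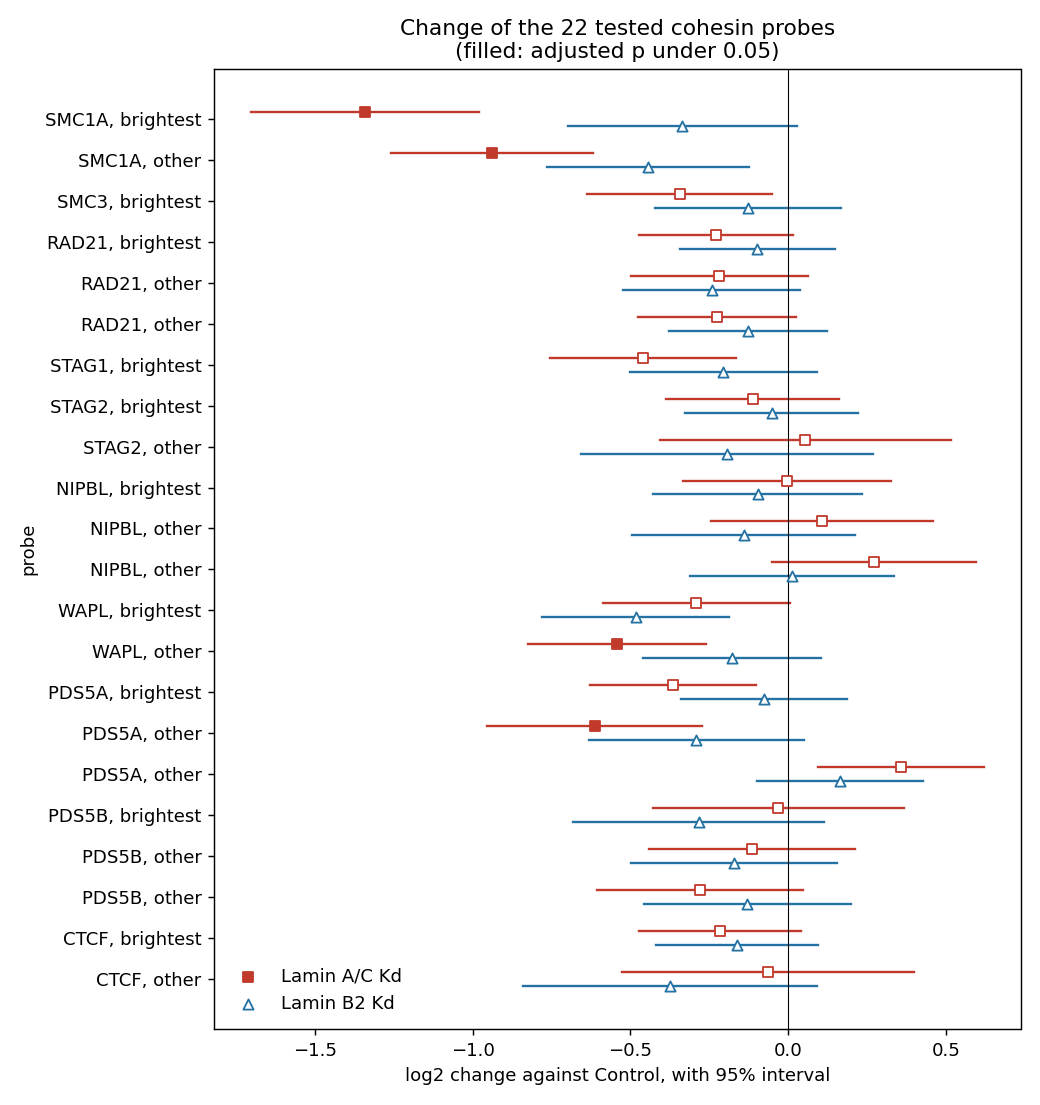
Log2 change against Control (horizontal axis) with its 95% interval for the 22 cohesin probes tested, 1 row per probe, in Lamin A/C Kd (squares) and Lamin B2 Kd (triangles). Filled symbols mark an adjusted p under 0.05, which 4 probes reached in Lamin A/C Kd (both of SMC1A, 1 of WAPL and 1 of PDS5A) and 0 in Lamin B2 Kd.

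Counted over the members, 1 of 10 (SMC1A) was lower in Lamin A/C Kd at an adjusted p under 0.05 and 0 were higher by limma, beside 5.78% of all gene names lower and 3.15% higher. At an unadjusted p under 0.05 there were 4 of 10, all lower, beside 23.2% of all gene names in either direction. By the criterion of the study's methods, a change of at least 2-fold with an unadjusted p under 0.05, SMC1A was again the 1 member lower, beside 1.29% of all gene names. This held for its brightest probe, while the other, at 1.92-fold, fell short. The study had singled out SMC1A from these same arrays, so its call here is not independent evidence. At the level of probes, 4 of 22 tested were lower at an adjusted p under 0.05, beside 6.15% of all probes, and in Lamin B2 Kd 0 of 22 were by limma (2 at an unadjusted p under 0.05), beside 3.65%. By limma in Lamin B2 Kd 0 of 10 members passed the adjusted p, and WAPL was the 1 member with an unadjusted p under 0.05, beside 24.4% of all gene names at that level. The background for lower calls in Lamin B2 Kd was 3.92% by the adjusted p.

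The averages of the members lay on the low side in both knockdowns. All 10 had an average below Control in Lamin A/C Kd, where 55.5% of all gene names did, and all 10 in Lamin B2 Kd, where 66.7% did. The median over the members was −0.26 in Lamin A/C Kd, beside −0.04 over all gene names, and −0.15 in Lamin B2 Kd, beside −0.14. A shift by the 75th percentile of each array moved the median of all gene names in Lamin B2 Kd to 0.06, and then 4 of 10 members were below Control there and 8 of 10 in Lamin A/C Kd. For 7 of 10 members every Lamin A/C Kd array was below every Control array (25.2% of all gene names), and for 4 of 10 every Lamin B2 Kd array was (27.3%).

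The number of members called in Lamin A/C Kd rested on the array of the second slide, through the spread that all groups share in the fit. Without Lamin B2 Kd replicate 3, SMC3 (adjusted p = 0.0256, limma), STAG1 (0.0268), PDS5A (0.0381) and WAPL (0.0461) passed in Lamin A/C Kd beside SMC1A, which makes 5 of 10, and the share of all gene names called lower then was 13.5%. That array was the lowest of its group for 9 of 10 members and for 64.3% of all gene names.

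The genes whose pattern over the 9 arrays was most like that of SMC1A were EIF2B5, a subunit of a translation initiation factor (r = 0.995), SLC25A10, a mitochondrial dicarboxylate carrier (0.992), TIPIN, a replication fork protein (0.990), POLA1, the catalytic subunit of DNA polymerase alpha (0.990), and RRM1, the large subunit of ribonucleotide reductase (0.990). They were the 5 highest Pearson coefficients among 20228 gene names above background on all arrays, and the arrays share their groups, so a gene that is low in Lamin A/C Kd alone ranks high. These genes changed in Lamin A/C Kd by −1.06, −2.60, −0.73, −0.65 and −0.58 in that order. Among the members, SMC3 was the most like SMC1A (r = 0.886, rank 935), and PDS5B the least (r = 0.075).

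The cofactors around cohesin were measured with 15 further genes of a list of 16, of which 13 were tested. CTCFL, the germline paralog of CTCF, and SMC1B, the meiotic counterpart of SMC1A, were not well above background on any array. In Lamin A/C Kd 10 of the 13 were lower on average and 3 higher, with a median of −0.43. At an adjusted p under 0.05, 2 were lower, beside 5.78% of all gene names. Without Lamin B2 Kd replicate 3, 7 were, beside 13.5%. ESCO2, which acetylates SMC3 in S phase, read 4.15, 4.13 and 4.11 in Control and 3.57, 3.43 and 3.66 in Lamin A/C Kd, a fall of 0.58 (adjusted p = 0.0123, limma). SGO1, the shugoshin that protects centromeric cohesin, read 3.47, 3.51 and 3.62 in Control and 3.05, 3.04 and 3.13 in Lamin A/C Kd, a fall of 0.46 (adjusted p = 0.0457, limma). The other SGO1 probe, annotated to another transcript of the gene, differed by 0.043 (adjusted p = 0.886), so that fall was seen by 1 probe of 2. Values below Control that did not pass included CDCA5 (sororin), an antagonist of WAPL (−0.49, adjusted p = 0.0555), and SGO2 (−0.43, adjusted p = 0.0529). ESCO1, the other SMC3 acetyltransferase (0.05), and MAU2, the partner of NIPBL (−0.03), lay close to 0.

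In Lamin B2 Kd 12 of these 13 genes were lower on average, or 8 after a shift by the 75th percentile, with a median of −0.28 (−0.08 after that shift, and −0.15 without replicate 3). Of them 0 passed the adjusted p by limma, beside 3.92% of all gene names lower. An unadjusted p under 0.05 was reached by 5 of them, beside 24.4% of all gene names. The direct contrast of the knockdowns passed for 3 of them, beside 15.7% of all gene names in either direction. STAG3, the meiotic STAG subunit, was lower in Lamin A/C Kd than in Lamin B2 Kd by −0.44 (adjusted p = 0.0454, limma). Beside 11.2% of all gene names higher by this contrast, HDAC8, which deacetylates SMC3, was higher by 0.49 (adjusted p = 0.0272), and the brightest probe of HASPIN, a mitotic histone kinase, by 0.37 (adjusted p = 0.0462). The other HDAC8 probe gave the same contrast as 0.77 (adjusted p = 0.0138), while the other HASPIN probe went the opposite way at −0.20 (adjusted p = 0.344). Set against Control, the HDAC8 probes stood at 0.14 and 0.08 in Lamin A/C Kd and at −0.35 and −0.70 in Lamin B2 Kd. None of these HDAC8 differences from Control had an adjusted p under 0.05 by limma. Against Control in Lamin A/C Kd the HASPIN probes stood at 0.21 and −0.33 (adjusted p = 0.260 and 0.164), so no direction is given for this gene.

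The SMC ATPases outside cohesin were lower in Lamin A/C Kd as well. SMC4, a condensin subunit, read 6.37, 6.35 and 6.50 in Control, 5.60, 5.51 and 5.65 in Lamin A/C Kd and 6.28, 6.29 and 6.15 in Lamin B2 Kd. It fell by 0.82 in Lamin A/C Kd (SE 0.11, adjusted p = 0.00381, limma), and its contrast between the knockdowns was −0.65 (adjusted p = 0.00488). SMC6 fell by 0.73 (its adjusted p = 0.0192) and SMC2, the partner of SMC4 in condensin, by 0.44 (adjusted p = 0.0439). SMC5, the partner of SMC6, differed by −0.33 (adjusted p = 0.115), and its 2 other probes by −0.26 and 0.58 (adjusted p = 0.410 and 0.145). Thus 3 of the 4 passed in Lamin A/C Kd by limma, beside 5.78% of all gene names lower, and 0 in Lamin B2 Kd, beside 3.92%. By the brightest probes their differences in Lamin B2 Kd were between −0.55 and −0.17 (3 of 4 below Control after a shift by the 75th percentile). Of the 4, 2 had an unadjusted p under 0.05 there, beside 24.4% of all gene names. The 2 other SMC5 probes were at −0.12 and 0.85 in Lamin B2 Kd (adjusted p = 0.667 and 0.0672, limma).

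**Figure D4:**
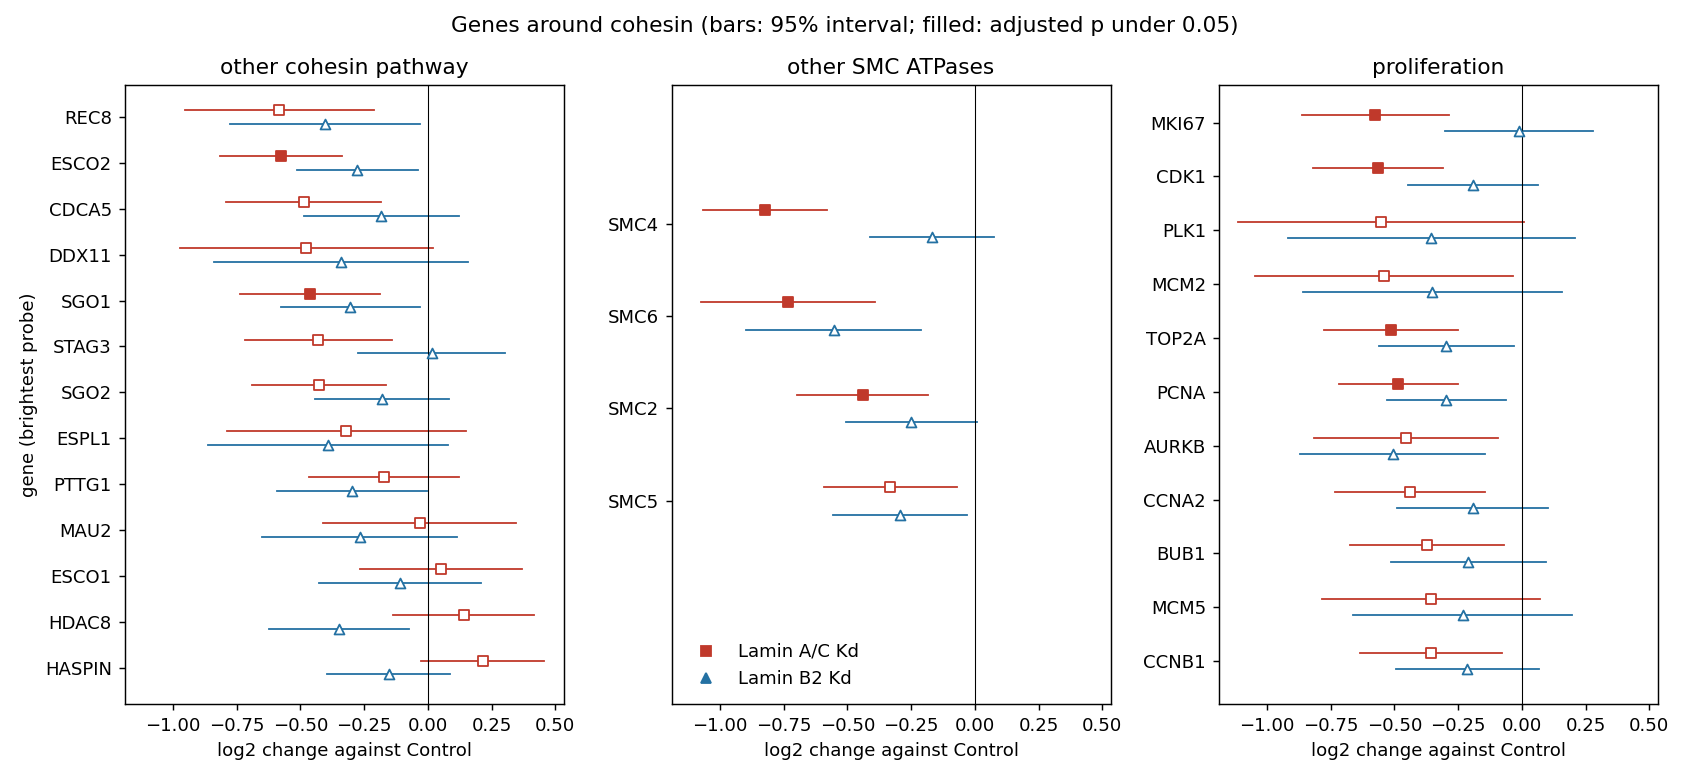
Log2 change against Control (horizontal axis) with 95% intervals for the 13 further cohesin genes tested, the 4 other SMC ATPases and 11 proliferation genes, in Lamin A/C Kd (squares) and Lamin B2 Kd (triangles). Filled symbols mark an adjusted p under 0.05, which occurred in Lamin A/C Kd for 2, 3 and 4 genes of these lists and in Lamin B2 Kd for 0.

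Proliferation genes moved with these values. All 11 of the list were lower on average in Lamin A/C Kd (median −0.48) and in Lamin B2 Kd (median −0.23), where after a shift by the 75th percentile 8 were (median −0.04) and where the median was −0.12 without replicate 3. CDK1, MKI67, PCNA and TOP2A passed in Lamin A/C Kd by limma, beside 5.78% of all gene names lower. Without Lamin B2 Kd replicate 3, 9 of the 11 genes passed there, beside 13.5%. In Lamin B2 Kd 0 genes passed, beside 3.92%, and 3 had an unadjusted p under 0.05, beside 24.4% of all gene names. The summed signal of the 11 genes, in units of the array median, was 1438 to 1546 in Control, 1006 to 1159 in Lamin A/C Kd and 1082 to 1348 in Lamin B2 Kd. The part of proliferation in the cohesin values was not tested.

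The targeted lamins were low in their own groups. LMNA stood at −3.83 against Control under its own siRNA (adjusted p = 0.000225, limma) and LMNB2 at −2.32 under its own (adjusted p = 0.000523). LMNB1, not targeted, stood at −0.99 in Lamin A/C Kd (adjusted p = 0.168, limma) and −0.64 in Lamin B2 Kd (adjusted p = 0.348). In Lamin A/C Kd LMNB2 was at −0.36 (adjusted p = 0.155, limma), and it and LMNB1 lay below Control on every array there. LMNA was at −0.29 in Lamin B2 Kd (adjusted p = 0.430, limma). Of 10 colorectal epithelial markers, 9 or 10 were above background on all arrays of each group, with a summed signal of 7126 to 9671 array medians over the 9 arrays. Among them VIL1, the microvillus protein villin, fell by 1.06 in Lamin B2 Kd with its brightest probe (adjusted p = 0.0340, limma), and its other probe differed by −0.66 (adjusted p = 0.201). The summed fibroblast, leukocyte and endothelial lists were at most 2.03, 8.20 and 1.29 array medians. By the count used for the epithelial list, 3 of 4 leukocyte genes (CD14, CD3E and CD68) were above background throughout each group. So was 1 of 2 endothelial genes, PECAM1. Of 5 fibroblast genes, 1 was so in Control, 2 with the Lamin A/C siRNA and 0 with the Lamin B2 siRNA. COL1A1, COL1A2, COL3A1 and CDH5 read below the array median on every array, as did PTPRC on all but 1. The epithelial markers KRT20 and CDX1 also read below it on every array. CD14 (log2 1.26 to 1.51) and CD3E (0.11 to 0.78) read above it on every array. Of the fibroblast list, PDGFRB was higher in Lamin A/C Kd by 1.52 (adjusted p = 0.0109, limma), at a log2 level of −0.29 to 0.22 there. Its Control readings were low, at −2.02, −1.56 and −1.04. It was detected in all 3 cultures given the Lamin A/C siRNA, but in 2 of 3 in each other group. PDGFRB thus entered the test only through the group in which it was high, and the size of its rise is uncertain. Its difference between Lamin B2 Kd and Control was not tested. Median array intensities were 63.0 to 82.6, and 65.6 to 74.1% of spots were well above background.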

How the data were processed

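Each of 9 DLD1 cultures, 3 per group, gave RNA for an Agilent array read in Cy3. Scanner output from Feature Extraction (10.5 in the submitters' processing notes) was deposited by the authors for every array, giving each spot an intensity with local background removed and, on 8 arrays, spatial detrending. A deposited summary of log2 values, which the authors had scaled by percentile (50th) and centered on row medians, served as an alternative. Its Lamin B2 Kd set numbers differ from the sample titles, so its columns were used by group.

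From each log2 intensity the 50th percentile of its array was subtracted, and repeat spots were averaged after outlier spots had been dropped. Saturation affected 0 spots. Testing required at least 0.5 of a probe's spots to be well above background on every array of a compared group. A linear model over all 9 arrays was fitted with limma 3.58.1 (R 4.3.3, with data.table in version 1.17.8), and p-values were Benjamini-Hochberg adjusted over all probes tested. The value of a gene is that of its brightest probe. Precision is limited by having 3 arrays in a group. Within-array differences were tested by exact permutation.

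The members and lists were chosen with earlier results of these data known. The genes named are the members, the listed cohesin, SMC, lamin, proliferation and cell type genes, and the 5 most like SMC1A. The fit was tested on simulated data. Symbols and chromosomes come from RefSeq (GRCh38.p14), and the files' positions, on an older build, were not used. Where on the transcript a probe lies was not analysed here.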

Additional observations from a re-analysis of the deposited data

Results flagged for a closer look

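SMC1A differed between the knockdowns by a test of the difference itself, on the same arrays from which the study had singled it out. The change in Lamin A/C Kd minus the change in Lamin B2 Kd was −1.01 on the log2 scale (adjusted p = 0.00417, limma), with all 3 Lamin A/C Kd arrays below all 3 Lamin B2 Kd arrays. Groups of 3 arrays were too small for a search for single arrays far from the rest.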

How the results depend on the processing

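The fall of SMC1A in Lamin A/C Kd kept its direction and its side of the threshold under all 21 alternatives run, from −1.41 to −1.14 (adjusted p 3.62e-05 to 0.0174, limma), and so did its contrast between the knockdowns, from −1.17 to −0.75 (adjusted p 0.000102 to 0.0246). In Lamin B2 Kd SMC1A passed the threshold under none of them, with differences from −0.42 to −0.11 (adjusted p 0.151 to 0.537, limma). SMC1A minus SMC3 changed by −1.08 to −0.80 in Lamin A/C Kd, by −0.26 to −0.17 in Lamin B2 Kd and by −0.87 to −0.53 between them.

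The count of members lower in Lamin A/C Kd was 1 and became 2 with the 75th percentile or quantile normalization, 4 with normexp, 3 with only the groups compared, and 5 with array weights or the slide as a block. Leaving out single arrays gave 1 to 5, with 5 for Lamin B2 Kd replicate 3. The added calls were of SMC3, STAG1, WAPL and PDS5A. Over all gene names the lower calls rose from 5.78% to as much as 15.5% in these fits. In Lamin B2 Kd the count became 1 (WAPL) with normexp or array weights, where 9.82% and 6.43% of all gene names were lower. Between the knockdowns the count became 4 with the 75th percentile or quantile normalization, beside 10.8% and 8.79% of all gene names lower. It became 2 with normexp or the slide as a block, beside 6.19% and 8.13%. Leaving out single arrays gave 1 to 2 there, with 2 for Lamin B2 Kd replicate 3, beside 8.15%. The count of members at least 2-fold apart between the knockdowns was 1, beside 1.39% of all gene names lower and 2.8% higher in the main fit. That count became 0 with the detrended signal (an alternative chosen after seeing the data), the mean of the probes and the authors' table, and 0 to 1 leaving out single arrays.

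Values near 0 turned sign, none of them called. With the 75th percentile and quantile normalization, the differences in Lamin B2 Kd became 0.033 and 0.056 for CTCF, 0.099 and 0.099 for NIPBL, 0.12 and 0.15 for PDS5A, 0.098 and 0.11 for RAD21, 0.068 and 0.093 for SMC3, and 0.14 and 0.17 for STAG2. Those in Lamin A/C Kd became 0.071 and 0.082 for NIPBL and 0.043 and 0.070 for PDS5B, and 0.0063 for STAG2 with quantile normalization. The contrast of NIPBL between the knockdowns became −0.028 and −0.018. Array weights gave 0.0035 in Lamin A/C Kd, 0.042 in Lamin B2 Kd and −0.039 between them for NIPBL. The slide as a block gave 0.060 in Lamin B2 Kd and −0.064 between the knockdowns for NIPBL. In Lamin A/C Kd NIPBL was at 0.13 with the mean of probes and 0.05 with the authors' table. That table gave 0.06 in Lamin A/C Kd and 0.20 between the knockdowns for STAG2. The mean of probes gave contrasts of 0.13 for CTCF, 0.093 for STAG2 and −0.087 for WAPL. Leaving out single arrays gave −0.035 to 0.049 in Lamin A/C Kd, −0.064 to 0.19 between the knockdowns and −0.19 to 0.060 in Lamin B2 Kd for NIPBL, and −0.078 to 0.0052 in Lamin A/C Kd for PDS5B. The cause of these differences was not tested.

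With the set number as a replicate block, the change of SMC1A was −1.34 in Lamin A/C Kd (adjusted p = 0.0110, limma), −0.34 in Lamin B2 Kd and −1.01 between them, and the counts were unchanged. Same-numbered arrays correlated at −0.09 to 0.15 in their deviations from group means, 1 of 9 pairs over 0.1, so the numbers were not taken to pair the arrays. An array left alone or in a pair is assumed to vary like the other groups.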
